A study of Caenorhabditis elegans with 2 samples.

Results

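The piRNA-proximal peaks of the chromosome IV clusters are sites of SNPC-1.2 chromatin binding whose summits lay close to the start of an annotated piRNA gene. SNPC-1.2 was mapped by chromatin immunoprecipitation and sequencing (ChIP-seq) with an anti-GFP antibody in whole Caenorhabditis elegans. The worms were of strain RW12251, in which a TY1::EGFP::3xFLAG tag had been inserted by CRISPR at the snpc-1.2 gene on chromosome III. They were collected as L4 larvae at 48 hours after synchronisation by bleaching and starvation at the L1 stage, and there was 1 group with 2 biological replicates. A peak of the list made from both replicates was kept when its summit lay on chromosome IV between 13.5 and 17.2 Mb (the second cluster) or between 4.5 and 7 Mb (the first cluster). It also had to lie within 250 bp of a 21ur- gene's 5' end and over 250 bp from the 5' end of any tRNA, snRNA or snoRNA gene. The rule gave 575 peaks of the 2829 nuclear peaks in the list and of the 1031 in the clusters. With the same rule, 174 peaks were kept in replicate 1's own list of 1411 nuclear peaks and 326 in replicate 2's own list of 1737. With 1 group, no comparison between conditions was made, and all values below are descriptions with no test. The replicate lists give the spread, as mean ± SD, and exact (Clopper-Pearson) 95% intervals cover the counting of peaks or genes only. The number of reads behind each peak is unknown.

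SNAPc, the small nuclear RNA-activating protein complex, binds the proximal sequence element upstream of small nuclear RNA genes and recruits RNA polymerase. In C. elegans, SNAPc is also needed for piRNA production: most 21U-RNAs, the worm's piRNAs, come from a great many tiny genes of their own in a pair of clusters on chromosome IV, many with a conserved upstream motif around CTGTTTCA. The mature RNAs begin with U, load onto the Argonaute PRG-1 and silence foreign transcripts in the germline, which is developing in L4 larvae.

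The annotation held 15363 piRNA genes, each 21 bp long, of which 11388 had their 5' end in the second cluster and 2816 in the first. The stretches below show the kinds of piRNA gene found at these peaks, each with 60 bases upstream and then the mature sequence as DNA, 5' to 3' on the gene's strand. Capitals mark the exact word CTGTTTCA, where present, and the 21 mature bases. The first 3 genes are the nearest to the strongest peaks of the second cluster that were not on repeated sequence (defined below), had a summit within 100 bp and had the word upstream, which was a choice made after the values were seen. The fourth was chosen in the same way in the first cluster, and the last 3 are nearest to the strongest peaks of the second cluster, whatever their promoter.
21ur-5641 (chrIV:16035336-16035416, plus strand): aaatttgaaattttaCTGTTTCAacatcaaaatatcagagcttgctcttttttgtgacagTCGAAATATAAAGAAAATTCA
21ur-3649 (chrIV:17021239-17021319, minus strand): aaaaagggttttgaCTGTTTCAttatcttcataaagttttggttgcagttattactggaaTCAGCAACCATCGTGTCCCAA
21ur-3007 (chrIV:16718868-16718948, minus strand): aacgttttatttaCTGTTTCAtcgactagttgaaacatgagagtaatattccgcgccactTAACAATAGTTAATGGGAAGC
21ur-7377 (chrIV:5265097-5265177, minus strand): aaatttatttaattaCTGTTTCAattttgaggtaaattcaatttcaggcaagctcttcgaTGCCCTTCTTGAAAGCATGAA
21ur-3443 (chrIV:15703944-15704024, minus strand): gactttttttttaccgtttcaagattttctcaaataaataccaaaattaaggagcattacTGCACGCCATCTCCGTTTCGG
21ur-11151 (chrIV:15530867-15530947, minus strand): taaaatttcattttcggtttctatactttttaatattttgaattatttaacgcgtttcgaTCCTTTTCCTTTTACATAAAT
21ur-6987 (chrIV:14875515-14875595, minus strand): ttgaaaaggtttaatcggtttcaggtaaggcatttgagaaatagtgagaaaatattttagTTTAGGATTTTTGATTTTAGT

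In these sequences the word began 45 bases before the 5' end of 21ur-5641 and of 21ur-7377, 46 before that of 21ur-3649 and 47 before that of 21ur-3007. Among all cluster piRNA genes that held it 60 to 30 bases upstream, the commonest start was 46 bases before the 5' end. The genes 21ur-3443, 21ur-11151 and 21ur-6987, next to the 3 strongest peaks of all, did not hold the exact word. With 1 mismatch, 21ur-3443 held it as ccgtttca and 21ur-6987 as cggtttca. The gene 21ur-6325, nearest to the next strongest peak (signal 935) and not printed here, held the exact word upstream. The sequences are from the RefSeq genome (WBcel235, which is ce11).

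The peaks lay mostly in the second cluster, which held 553 of the 575, against 22 in the first. This came to 149 peaks per Mb in the second cluster and 8.8 in the first, a ratio of 17.0. The ratio was 16.1 in replicate 1's own list, from 167 and 7 peaks, and 36.0 in replicate 2's, from 320 and 6 peaks. The second cluster is also denser in piRNA genes, with 3078 per Mb against 1126 in the first. Per 1000 piRNA genes there were 48.6 peaks in the second cluster and 7.81 in the first (21.4 ± 9.50 and 2.31 ± 0.251 in the replicate lists; SD, n = 2). The gene density of the clusters thus differed by less than the peak density in each list.

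**Figure D1:**
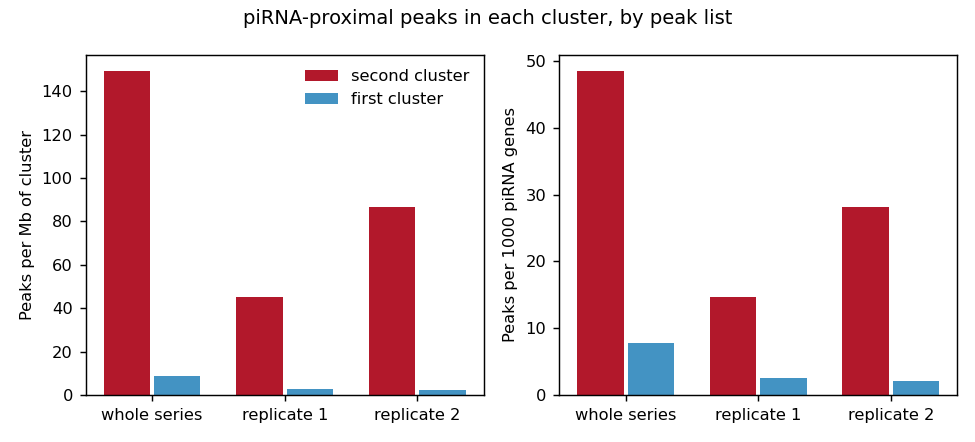
Peaks per Mb of cluster (left panel) and per 1000 annotated piRNA genes (right panel) in the whole-series list and in each replicate's own list. Red bars are the second cluster and blue bars the first, and the second cluster was higher in all 3 lists on both scales.

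In the second cluster, 68.4% of the 809 peaks away from short RNA genes lay within 250 bp of a piRNA 5' end, and so did 61.3% of all bases there. The share of peaks was therefore near that of the sequence itself. In the first cluster 13.7% of the 161 such peaks were within 250 bp, against 33.8% of bases, so peaks near piRNA genes were there a smaller share than the bases near them. Closer to the 5' ends the shares of the second cluster drew apart, with 30.7% of the 809 peaks within 50 bp and 22.2% of bases. Away from repeated sequence, 36.8% of 650 peaks of the second cluster and 3.60% of 139 of the first were within 50 bp, where the first cluster had 9.10% of its bases.

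Within the second cluster the peaks were spread along its whole length. Each of its 15 windows of 250 kb (the last of 200 kb) held between 10 and 63 of them, with a median of 36, and the window with 63 held 1032 piRNA genes. In the first cluster, 3 of 10 windows held none and the highest count was 6, in a window with 302 piRNA genes. The fullest window of the first cluster for piRNA genes held 520 of them, and the emptiest of the second 428. The gene counts per window thus overlapped between the clusters while the peak counts did not. These counts are not scaled for the shorter last window of the second cluster, so they do not compare densities. Over the windows of a cluster, counts of peaks and of piRNA genes had a Spearman rho of 0.87 in the second (15 windows) and 0.72 in the first (10 windows). The rule itself uses piRNA genes, so some of that correlation is built in.

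Of all piRNA genes in the second cluster, 14.1% (1611 genes; exact interval 13.5 to 14.8%) had a 5' end within 250 bp of one of these summits, against 1.35% (38 genes; 0.957 to 1.85%) in the first. The replicate lists gave 6.02 ± 2.73% for the second cluster and 0.337 ± 0.0251% for the first (SD, n = 2). Genes near the summits were like the other piRNA genes in both sequence features examined. The mature RNA began with T in 95.9% of 1649 genes near the summits and in 96.3% of 12555 not near. CTGTTTCA lay 60 to 30 bases upstream in 33.2% of the near genes and in 34.9% of the others, against 17.5% of 1159 piRNA genes outside the clusters. The nearest gene held it upstream at 198 of the peaks, whose median signal was 97.1, and not at the other 377, whose median was 97.3. By the exact word, then, these shares and medians were close.

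A summit commonly had several piRNA 5' ends within 250 bp, a reach that can go beyond the peak's own interval. The mean number of piRNA 5' ends within 250 bp of a summit was 3.03, with a median of 3 and a range of 1 to 9, and 2.92 ± 0.132 in the replicate lists (SD, n = 2). At points 1000 bp to the left and right of the same summits, where no gene was required, the means were 2.11 and 2.08. In all, 463 peaks (80.5%) had 2 or more piRNA 5' ends in reach. The share was 81.9% of the second cluster's peaks (exact interval 78.5 to 85.0%) and 45.5% of the first's (24.4 to 67.8%). The mean was 3.08 in the second cluster and 1.95 in the first, whose piRNA genes are sparser.

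The peak with the most piRNA 5' ends, 9 of which 6 were on the plus strand, had its summit 14 bp downstream of 21ur-1786 and a signal of only 31.6. The peaks nearest to 21ur-10502 (signal 148) and 21ur-12743 (signal 127) had 8 each. Signal did not climb with the number of genes: its median was 93.9 at 195 peaks with 4 or more, 98.0 at 268 peaks with 2 or 3 and 106 at 112 peaks with 1. Without peaks on repeated sequence these medians were 94.3, 96.5 and 95.

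The nearest piRNA genes were split about equally between the strands, which describes the annotation near the peaks and not use of a strand. The nearest piRNA 5' end was on the plus strand at 48.3% of the peaks (exact interval 44.2 to 52.5%) and at 47.5 ± 0.327% in the replicate lists (SD, n = 2). By cluster this was 48.6% in the second and 40.9% in the first, while 50.1% and 48.2% of their piRNA genes were on the plus strand. Genes of both strands were in reach at 225 peaks, which was 39.1% of all and 48.6% of those with at least 2 genes. Inside protein-coding genes, the nearest piRNA was on the host's strand at 50.5% of 216 peaks.

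Most summits, 62.4%, were outside protein-coding genes, with 29.4% in introns and 8.17% in exons. The other cluster peaks, which are the 395 with no piRNA, tRNA, snRNA or snoRNA 5' end in reach, had 50.6% outside, 25.3% in introns and 24.1% in exons. Only 3.65% of the piRNA-proximal peaks had a protein-coding 5' end within 250 bp. The sequence within 75 bp of their summits had a median A+T content of 69.5%, against 56.3% at the other cluster peaks, and 70.9% in windows of the same width that began 500 bp to the right of the summits.

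Summit position was measured from the nearest of the piRNA 5' ends in reach, which by itself draws the values towards 0. The median position was 14 bp downstream of the nearest 5' end, with quartiles of -41 and 78 bp, where negative is upstream. In the replicates' own lists the medians were 37 bp downstream in replicate 1 and 20 bp in replicate 2. Of all summits 44.2% were within 50 bp of the nearest 5' end and 71.3% within 100 bp. In the second cluster 44.8% and 72.0% of the peaks were as close, against 36.1% and 62.9% of the bases that meet the 250 bp limit. The median was 14 bp in the second cluster and -2.5 bp in the first, where only 22 peaks give it. At the 81 peaks that had 1 piRNA 5' end in reach and were not on repeated sequence, where no choice among genes is made, the position had a median of 62 bp and quartiles of -54 and 152 bp.

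Just inside the limit of 250 bp were the summits 244 bp from 21ur-6874, 243 bp from 21ur-2323 and 242 bp from 21ur-13893, with signals of 141, 82.8 and 81.3. Just outside were those 257 bp from 21ur-3610, 263 bp from 21ur-5684 and 264 bp from 21ur-6651, with signals of 9.27, 66.9 and 85.0.

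CTGTTTCA was counted on both strands around the summits. It lay within 75 bp of 29.4% of the piRNA-proximal summits (exact interval 25.7 to 33.3%), at 29.5% of those in the second cluster and 27.3% of those in the first. In the replicate lists the share was 24.6 ± 3.02% (SD, n = 2). Windows of the same width that began 500 bp to the right and left held it at 17.6% and 15.8%, and of all 151-bp tiles it was in 13.4% in the second cluster, 7.60% in the first and 4.66% on all of chromosome IV. At the other cluster peaks it was in 1.27%. The rule places piRNA genes, and with them their promoters, near these summits, so the excess over the flanks is not independent of it.

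A count that does not use the distance to piRNA genes takes all 650 second-cluster peaks away from short RNA genes and repeated sequence. It keeps the other parts of the rule, and 497 of the 650 are piRNA-proximal peaks. Around them CTGTTTCA occurred 1.75 times per kb within 100 bp of the summit and 1.07 times per kb at 500 to 1000 bp. The piRNA 5' ends there came to 5.85 per kb within 100 bp and 3.65 per kb at 500 to 1000 bp. Both were denser at these summits than around them. At the 159 second-cluster peaks on repeated sequence the order was the opposite, with CTGTTTCA at 0.220 per kb within 100 bp and 0.799 per kb at 500 to 1000 bp. The piRNA 5' ends at those 159 came to 0.723 and 2.28 per kb over the same distances. Repeated sequence is defined below, and the split by it was made after the values were seen.

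**Figure D2:**
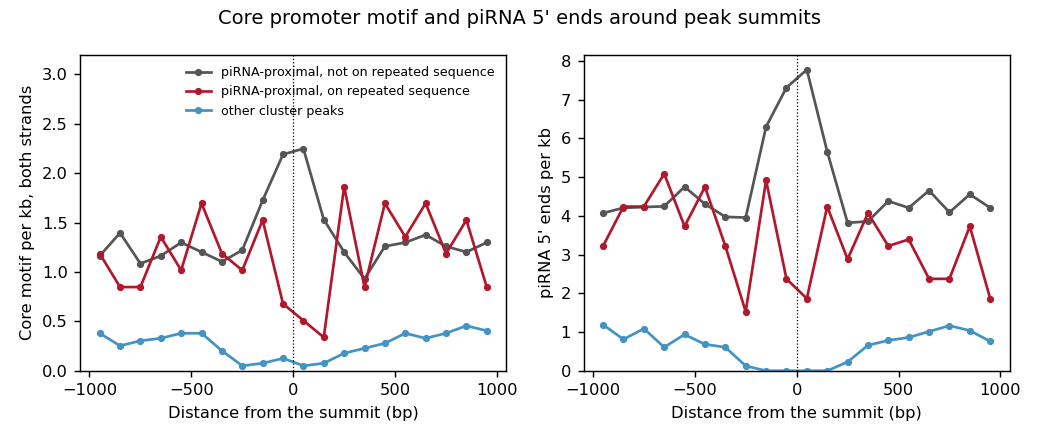
Occurrences per kb of the core promoter motif on either strand (left panel) and of piRNA 5' ends (right panel) in steps of 100 bp from the summit. Grey lines are piRNA-proximal peaks not on repeated sequence, red lines those on it, and blue lines the other cluster peaks. The grey lines are highest at the summit, while the red ones are not, with 2.22 and 0.593 motifs per kb within 100 bp; the rule for choosing peaks fixes part of the right panel.

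Signal, the peak caller's value as deposited, was similar in the clusters. Its median was 97.3 in the second cluster and 97.2 in the first, a ratio of 1.00 (0.984 and 0.788 in the lists of replicates 1 and 2). Against the other cluster peaks, whose median was 117, the ratio was 0.834, and 0.754 and 0.724 in the replicate lists. The 18 peaks left out because a tRNA, snRNA or snoRNA gene was also in reach had a median of 860. In whole larvae, binding in more cells and more binding per cell cannot be told apart.

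The signals fell into 3 ranges, which were set after they were seen. Most peaks, 498, had signals between 54.9 and 198, while 40 lay between 2.61 and 45.4 and 37 between 206 and 1077. Peaks of the middle range had a median distance of 53.5 bp to a piRNA 5' end and 3.1 piRNA 5' ends each, and 31.3% had CTGTTTCA within 75 bp. The 37 strongest stood apart in all of these, with a median distance of 163 bp, 1.62 piRNA 5' ends each and CTGTTTCA at 8.11% (3 peaks). The 40 weakest had a median distance of 63.5 bp, 3.53 piRNA 5' ends and CTGTTTCA at 25% (10 peaks). The weakest peak of all, with a signal of 2.61, had its summit 38 bp downstream of 21ur-4569.

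Each replicate's own list overlapped a smaller share of these peaks than of the list as a whole. Of the piRNA-proximal peaks, 30.3% shared a base with 1 or more of replicate 1's own peaks (exact interval 26.5 to 34.2%), where 46.2% of all nuclear peaks did. For replicate 2's own list the share was 49.0% (44.9 to 53.2%), where 55.8% of all nuclear peaks did. The other cluster peaks were at 54.7% for replicate 1 and 63.8% for replicate 2. In all, 116 peaks (20.2%) overlapped both lists and 235 (40.9%) neither. Before the replicates' lists were thresholded, a call with its summit within 100 bp existed for 523 of the 575 peaks in replicate 1 and for 538 in replicate 2. No share over all nuclear peaks is set beside the counts for both lists, for neither or for these calls. They are therefore not read as a result about these peaks.

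Overlap with the replicates' own lists was complete at the strongest peaks and similar in the middle and weakest ranges. Any shared base counted, so a weak peak can be counted through the call of a stronger neighbour. For example, the intervals of the peaks of 7.76 and 139 near 21ur-11261 overlap. How many of the weakest peaks were counted in this way was not tested, so their shares are not read as support for their own summits. The signal behind the ranges comes from both replicates together, so it is not independent of their lists. All 37 peaks over 200 were in both replicates' own lists, against 25.5% (replicate 1) and 45.2% (replicate 2) of the middle range and 25% and 50% of the weakest range. At the 501 peaks called in both replicates, Spearman's rho between the replicate signals was 0.36, and Pearson's r between their log10 values 0.62. These points share 2 libraries, and replicate 2's signal was the higher at 70.1% of them. With no scale or depth stated, that share is not read as a difference in binding.

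The 5 strongest peaks of the second cluster each had a single piRNA 5' end in reach, 140 to 231 bp away. The strongest had a signal of 1077 (470 in replicate 1 and 596 in replicate 2), with its summit at chrIV:15703824 in an intron of Y105C5A.15, 140 bp downstream of 21ur-3443. The next had 1002 (449 and 550), 158 bp downstream of 21ur-11151 and outside protein-coding genes. Those nearest to 21ur-6987 and 21ur-6325, also outside protein-coding genes, had 945 (500 and 438) and 935 (386 and 543). The fifth had 889 (414 and 466) and lay in an intron of Y40H7A.4, 231 bp downstream of 21ur-12854. All 5 summits were thus downstream of the piRNA start, and none had CTGTTTCA within 75 bp.

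The first cluster's strongest pair were summits of 1 interval, chrIV:5264747-5265340. Its signals were 732 (319 in replicate 1 and 383 in replicate 2) for the summit 182 bp downstream of 21ur-7377 and 286 (97.5 and 98.2) for the one 22 bp upstream of it. The first of these summits lay 28 bp from the 5' end of WBGene00004851, annotated as a pseudogene. The sequence there was 96.2% identical over 79 bases to the spliced leader RNA gene sls-2.12, whose class of RNA is trans-spliced to the start of messages. The other 3 had signals of 161 (67.3 and 88.1) near 21ur-10115, 151 (55.7 and 86.2) near 21ur-13565 and 139 (74.1 and 60.9) near 21ur-11261. The summit of 161 was 25 bp from 21ur-10115 and 41 bp from the 5' end of the ncRNA gene T28H11.31. The summit of 139 was 106 bp upstream of 21ur-11261 but 7 bp from the 5' end of the protein-coding gene hda-6. The summit of 151 was 96 bp from 21ur-13565, with the nearest other gene 368 bp away. Apart from that pair, no peak of the first cluster was above 200. The weakest, with 7.76, was 140 bp downstream of 21ur-11261 and at the 5' end of F41H10.4, in an exon of that gene. It had no call in either replicate within 100 bp.

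The strongest peaks were next compared with the rest of the genome, which was done after their values had been seen. Repeated sequence was defined as a 301-bp window around the summit with 10 or more other copies in the genome, each aligned over at least 100 bp at 80% identity or more. Of the 575 peaks, 59 met this (10.3%; exact interval 7.90 to 13.0%), and so did 58 of the windows 1000 bp to the right of the same summits, so the whole set held no more repeats than its surroundings. By signal the shares were 59.5% of the 37 strongest, 7.03% of the middle range and 5% of the weakest. Of the other cluster peaks, 30.9% were on repeated sequence.

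The 59 peaks on repeated sequence differed from the other 516 in several measures. Their median signal was 160, against 95.4 at the other peaks, and their median distance to a piRNA 5' end was 141 bp, against 53 bp. CTGTTTCA was within 75 bp of 6.78% of them and of 32.0% of the others. They were in replicate 1's own list in 72.9% of cases, against 25.4% of the others, and in replicate 2's in 81.4%, against 45.3%. Their median A+T content was 55.0%, against 70.2%. Which of these measures sets the signal was not tested.

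**Figure D3:**
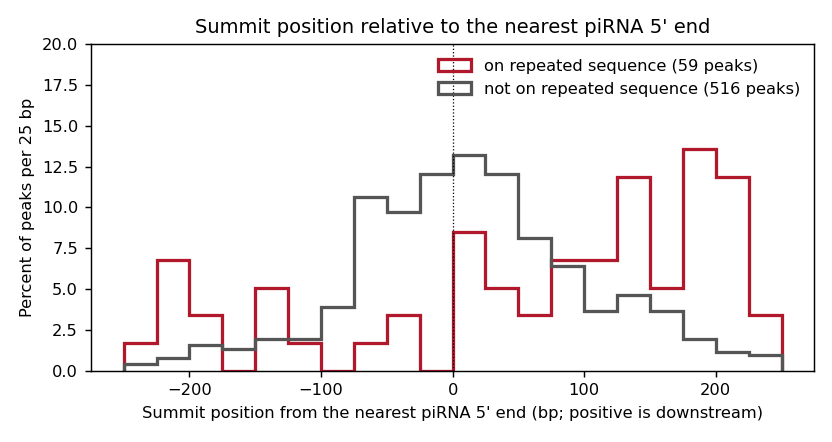
Position of the summit from the nearest piRNA 5' end, as percent of peaks in steps of 25 bp, with positive values downstream. The red line is the 59 peaks on repeated sequence, with a median of 106 bp, and the grey line the 516 other peaks, with a median of 9 bp and a crowding around 0.

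**Figure D4:**
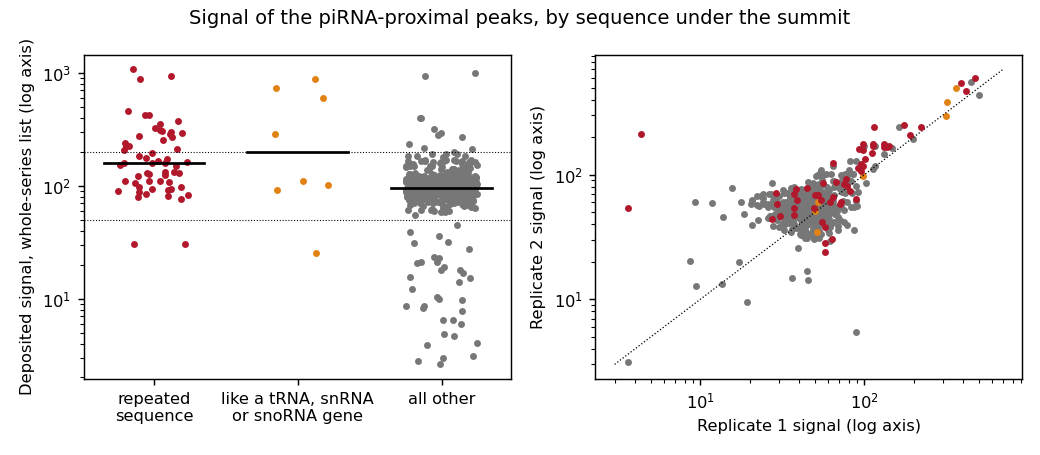
Deposited signal of each piRNA-proximal peak on a log axis (left panel; thick bars are medians, dotted lines 50 and 200) and replicate 2 against replicate 1 signal on log axes (right panel; the dotted line marks equal values). Red points are peaks on repeated sequence, orange points other peaks like a tRNA, snRNA or snoRNA gene and grey points all the rest, which crowd near 100 with 11 above 200.

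Grouped by likeness of their windows, 25 peaks formed a first family, all in the second cluster, with a median signal of 214 and a range of 30.8 to 1077. Of these, 13 were above 200, 23 were in each replicate's own list and 1 had CTGTTTCA within 75 bp. A second family had 7 peaks, 1 of them in the first cluster, with a median of 241 and a range of 30.7 to 889. The shared part of the first family, called repeat 1 here, was 174 bp long in its strongest peak, and that of the second, repeat 2, was 121 bp long. No name was given to either.

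For each repeat the sequences below give the strongest piRNA-proximal copy, the copy with the highest signal among all others in the clusters, and a copy outside the clusters with no peak. The last was the copy most like the first among those on chromosomes II to V and X with at least 50% of their 50-base words found once in the genome. Capitals mark bases that differ from the strongest piRNA-proximal copy in the alignment, which is itself all in lower case.
Repeat 1, strongest piRNA-proximal copy (chrIV:15703713-15703886, plus strand): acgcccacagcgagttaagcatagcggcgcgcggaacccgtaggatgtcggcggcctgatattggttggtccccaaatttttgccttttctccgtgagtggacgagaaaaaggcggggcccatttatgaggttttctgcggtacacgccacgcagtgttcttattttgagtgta
Repeat 1, further copy with a peak (chrIV:13855515-13855687, plus strand): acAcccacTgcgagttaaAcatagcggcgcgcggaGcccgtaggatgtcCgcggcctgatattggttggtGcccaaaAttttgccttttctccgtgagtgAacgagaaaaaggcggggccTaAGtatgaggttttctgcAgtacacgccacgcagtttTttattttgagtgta
Repeat 1, copy with no peak (chrIII:2797500-2797672, minus strand): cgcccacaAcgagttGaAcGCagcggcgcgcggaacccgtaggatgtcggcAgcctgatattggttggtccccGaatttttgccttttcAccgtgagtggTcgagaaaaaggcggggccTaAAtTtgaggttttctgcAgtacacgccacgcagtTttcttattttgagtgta
Repeat 2, strongest piRNA-proximal copy (chrIV:15168585-15168705, plus strand): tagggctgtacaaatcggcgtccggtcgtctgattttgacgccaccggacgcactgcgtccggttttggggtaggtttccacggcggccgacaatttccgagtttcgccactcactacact
Repeat 2, further copy with a peak (chrIV:15234370-15234490, minus strand): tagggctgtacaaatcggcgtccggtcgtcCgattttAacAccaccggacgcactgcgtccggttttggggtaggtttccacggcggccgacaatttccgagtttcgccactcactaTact
Repeat 2, copy with no peak (chrIII:2841393-2841513, minus strand): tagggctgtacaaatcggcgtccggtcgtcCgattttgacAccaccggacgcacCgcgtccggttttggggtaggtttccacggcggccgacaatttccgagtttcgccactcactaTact

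The further copy of repeat 1 had a signal of 1102 and was 92.0% identical to the strongest, and the copy without a peak was 91.3% identical. None of the 50-base words of that further copy occurred only once in the genome, against 58.4% in the strongest piRNA-proximal copy and 60.5% in the copy without a peak. Read mapping at the repeats was not tested, so the signal of 1102 cannot be assigned to that copy alone. For repeat 2 the unique words came to 62.5% in the strongest copy, 52.8% in the further copy and 69.4% in the copy without a peak. The further copy and the copy without a peak of repeat 2 were both 96.7% identical to the strongest, and its further copy, with a signal of 2217, is among the 18 peaks left out: the 5' ends of an annotated snoRNA gene and of 21ur-1009 both lay in it. In the first cluster, the 21 bases of 21ur-10115 ran into the start of a copy of repeat 2, whose peak had a signal of 161.

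The genome held 120 copies of repeat 1 with at least 80% of its length, 41 inside the clusters and 79 outside. A summit lay within 50 bp of 27 copies inside the clusters (65.9%; exact interval 49.4 to 79.9%) and of 2 outside (2.53%; 0.308 to 8.85%). In the replicate lists the shares were 53.7 ± 3.45% inside, from 23 and 21 copies, and 1.27% outside, from 1 copy in each. Inside, 23 of 36 copies in the second cluster and 4 of 5 in the first had a summit. Outside, the copies with one were 1 of 25 on chromosome V and 1 of 21 on X, with none of 17 on I, 5 on II, 10 on III and 1 on the rest of IV. Of all tiles of the same length, 4.49% inside the clusters and 0.518% outside were as close to a summit. Both repeats were chosen as the largest families among piRNA-proximal peaks, all of which lie inside the clusters by the rule. A high share of copies with a summit inside the clusters is thus partly built in. The exact intervals do not cover that choice.

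Repeat 2, chosen in the same way, had a similar contrast with fewer copies. A summit was at 9 of its 14 copies inside the clusters (64.3%; exact interval 35.1 to 87.2%) and at 1 of 35 outside (2.86%; 0.0723 to 14.9%). The replicate lists gave 60.7 ± 5.05% inside and 1.43 ± 2.02% outside (SD, n = 2). That 1 copy lay on chromosome IV just beyond the right limit of the second cluster. Copies with a summit inside the clusters had signals of 105 to 2217 for repeat 2 and of 30.8 to 1102 for repeat 1.

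**Figure D5:**
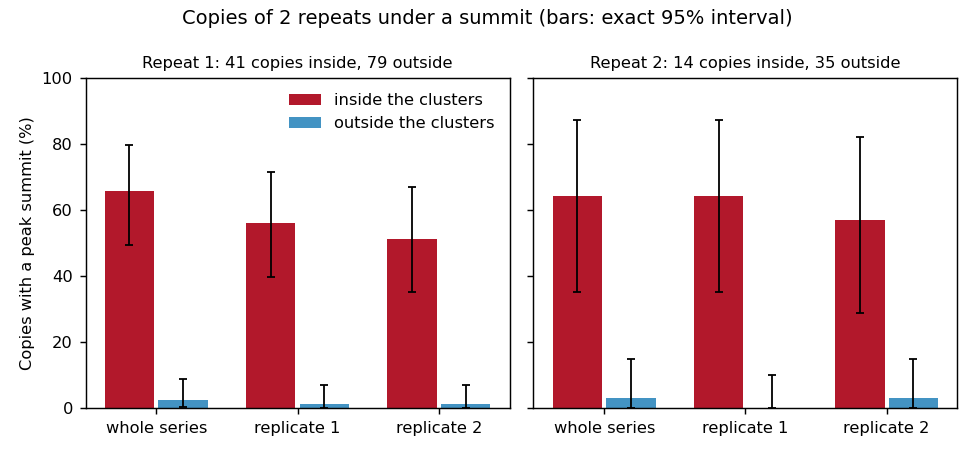
Percent of the copies of repeat 1 (left panel) and repeat 2 (right panel) with a peak summit within 50 bp, in the whole-series list and each replicate's own list, with exact 95% intervals. Red bars are copies inside the chromosome IV clusters and blue bars copies outside them, and the red bar was higher for both repeats in all 3 lists. Both repeats were chosen from peaks inside the clusters, which builds in part of that contrast.

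Identity to the strongest copy and the share of unique sequence were set beside these counts. The median identity of repeat 1 copies was 90.8% inside the clusters and 89.1% outside. Among copies at least 90% identical, 20 of 26 inside and 2 of 35 outside had a summit. The median share of 50-base words found once in the genome was 47.6% inside and 66.1% outside, so more of the sequence was unique in the copies outside. Inside the clusters, repeat 1 copies with a summit were more like the strongest copy than those without, with a median identity of 91.9% against 87.3%, and had fewer unique words, with medians of 42.7% and 62.0%. For repeat 2 inside the clusters, the medians were 96.6% identity and 62.3% unique words in the 9 copies with a summit, against 97.5% and 0% in the 5 without. In these counts a copy with a summit had one within 50 bp. Some copies counted without one lay near a peak of the same family whose summit was further off. An example is the repeat 1 copy at chrIV:14328224-14328396, near the summit at chrIV:14328479. For repeat 2, the copy at chrIV:16209646-16209766 was counted as without, though each replicate's own list had a summit there. These contrasts thus depend in part on the 50 bp limit. The part of divergence and of read mapping in which copies had a peak was not tested. Among copies with at least 50% such words, 12 of 20 inside and 1 of 49 outside had a summit for repeat 1, and 7 of 7 and 1 of 22 for repeat 2.

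The distance from the copies to a piRNA gene was compared as well. Inside the clusters, the middle of repeat 1 copies had a median distance of 301 bp to a piRNA 5' end. This held both for the 27 with a summit within 50 bp and for the 14 without. Of the 27, 16 had no piRNA 5' end within 250 bp of the middle of the copy, and the furthest was 14468 bp from one. The summits within 50 bp of a copy in the clusters lay 37 to 200 bases along repeat 1, with a median of 104. Summits further off were not counted, so their place inside the repeat is partly set by that limit.

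A few more of the strong peaks were like annotated short RNA genes. A stretch of at least 70 bases like a tRNA, snRNA or snoRNA gene lay within 300 bp of 9 summits (1.57%), of which 4 were among the 37 strongest. Besides the pair at 21ur-7377, these were the peak of 879 near 21ur-370, 69.5% identical over 141 bases to the snRNA gene F56A12.5, and the peak of 602 near 21ur-602, 83.6% identical over 110 bases to the snoRNA gene C23G10.12. The other cluster peaks had such a stretch in 1.77% of cases. Together, 26 of the 37 strongest peaks were on repeated sequence or like a short RNA gene, and 11 were neither. Those 11 had signals of 213 to 1002, and 2 of them had CTGTTTCA within 75 bp.

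A list of 22 genes for SNAPc subunits, piRNA transcription and processing factors and Argonautes was also read, of which 19 names were in the annotation. A summit within 250 bp of the 5' end was found for 1 of them, snpc-3.4, a gene for a SNAPc subunit, with a signal of 102. No share over all genes is set beside this count, so it is not read as a result about these genes. The gene snpc-1.2 itself and prg-1, for the piRNA Argonaute, had none.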

How the data were processed

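Peaks of anti-GFP ChIP-seq of SNPC-1.2 in L4 larvae come from the deposited lists (assembly ce11), 1 group with 2 biological replicates. Fragments were 200 to 800 bp after sonication, per the labels. The authors made the lists from filtered alignments and a control, per the deposited file notes, but with what aligner and peak caller is not given in the sources used here. A control library was not analysed here. Signal as deposited is a value that the peak caller gave each peak, with no scale stated. It was compared within a list, apart from the replicates' signals set side by side at the same peaks. The deposited ranked list of the whole series holds the −log10 of the global irreproducible discovery rate (IDR), capped at 5, which was used for the stricter IDR limit. Depth is unknown, since the lists hold no read counts.

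Genes were those of Ensembl release 115 for WBcel235, and bases were read from RefSeq's genome of that build; no peak ended beyond its chromosome. A replicate's signal at a peak was that of its nearest ranked call with a summit within 100 bp. Overlap meant at least 1 shared base. Shares carry exact 95% intervals (SciPy 1.17.1). CTGTTTCA was searched on both strands without mismatches. Copies were found with blastn (BLAST+ 2.17.0, E-value limit 1e-10, no low-complexity filter), and overlapping hits were merged. The shared part of a family was the stretch of its strongest window covered by at least 50% of the hits. Python 3.11.15, pandas 2.3.3, NumPy 2.4.6, networkx 3.6.1 and matplotlib 3.10.9 were used, and the counting was tested on simulated peaks and sequences. No test was run, since 1 group of 2 gives none.

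The peaks, lists and measures were chosen with earlier results of these data known. The peaks named are the 5 of highest signal and the 1 of lowest signal in each cluster, the 3 with most piRNA 5' ends, and the 3 nearest to the 250 bp limit on each side. The analysis of repeated sequence and of likeness to short RNA genes, the 3 signal ranges and the genes 21ur-5641, 21ur-3649, 21ur-3007, 21ur-370 and 21ur-602 were added after the values were seen. Alternatives were limits of 100 and 500 bp, the conservative list, a stricter IDR, 500 bp from short RNA genes, no protein-coding 5' end in reach, other motif windows and words, other overlap rules and each replicate left out.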

Additional observations from a re-analysis of the deposited data

How the results depend on the processing

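No paired analysis was possible because there was 1 group. Over each replicate's own list (leaving out the other), the number of peaks was 174 to 326, the density ratio of the second over the first cluster 16.1 to 36.0, the signal ratio of the clusters 0.788 to 0.984, that over other cluster peaks 0.724 to 0.754, piRNA 5' ends per peak 2.82 to 3.01, peaks with both strands 32.2 to 38.7%, nearest gene on the plus strand 47.2 to 47.7%, summit position 20 to 37 bp, CTGTTTCA at 22.4 to 26.7% and piRNA genes in reach 475 to 916. At a limit of 100 bp, piRNA 5' ends per peak were 1.97, both strands 16.1%, CTGTTTCA 37.8% and genes in reach 809. At 500 bp they were 4.63 per peak, both strands 58.8% and genes in reach 2681. In the conservative list the signal ratio of the clusters was 1.14 and the plus strand 49.5%. At an IDR of at most 0.001 there were 173 peaks and 465 genes in reach, with 2.81 piRNA 5' ends per peak. At that limit the signal ratio over other cluster peaks was 0.622, plus strand 50.3%, position 36 bp and CTGTTTCA 17.9%. The share of peaks in a replicate's own list, averaged over the 2 replicates, was 78.9% there, against 39.7% in the main list. With no protein-coding 5' end in reach the signal ratio over other cluster peaks was 0.903 and the plus strand 48.7%. Counting all piRNA 5' ends in reach gave 50.4% plus and a position of 31 bp. CTGTTTCA was at 20.2% within 50 bp, 47.0% within 150 bp and 63.3% with 1 mismatch, and GTTTC at 67.1%; with 1 mismatch 78.0% of piRNA genes near the peaks held it upstream. Flanks had 12.2, 34.8, 49.0 and 63.5% in the same order as the 4 peak shares. Without peaks on repeated sequence, an alternative chosen after seeing the data, the signal ratio over other cluster peaks was 0.875 and piRNA 5' ends per peak 3.19. The cause of these shifts was not tested. Of 106 values under alternatives, 64 moved by less than the replicate spread (counts by less than 1.5 times). Among these are values that could not move, since the limit of 500 bp from short RNA genes left the same 575 peaks. The signal ratio of the clusters, 1.00 in the main list, fell on either side of 1, with 0.903 at the stricter IDR besides the values above, and the plus-strand share, 48.3% in the main list, fell on either side of 50%, so neither has a direction that held. The unknown depth limits what the absence of a peak says, most of all in the first cluster and at repeat copies.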
